A study of Mus musculus with 28 samples.

Results

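The expression of 10 epithelial genes was followed through the reprogramming of mouse fibroblasts. They are Cdh1, Epcam, Ocln, Cldn3, Cldn4, Cldn6, Cldn7, Krt8, Krt18 and Krt19, taken by gene name as 10 of the 50600 genes of the deposited table, and every one of them was found there once. The table held 28 RNA-seq libraries in 14 groups of 2. The starting cells were MEFs, primary mouse embryonic fibroblasts that the labels give as wild type and that carried an Oct4-GFP reporter according to the methods, prepared from mid-gestation embryos of either sex. One group of MEFs had no treatment and another had received the p38 inhibitor SB203580, a blocker of the stress-activated p38 MAP kinases (p38i). The remaining 12 groups were cells on days 1, 3, 5 and 7 after retroviral delivery of Oct4, Klf4 and Sox2 and transfer to the chemically defined medium iCD1. In the DMSO condition only the solvent was added, in p38i the inhibitor was present during induction, and in pre-p38i the MEFs had been exposed to it beforehand. The labels name no solvent for the untreated MEFs. Whether 2 libraries of a group came from separate cultures is not given in the sources used here, so the errors below measure the spread between these libraries, which may be technical.

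Epithelial cells are held together by adherens junctions, tight junctions and desmosomes. Cdh1 encodes E-cadherin, the adhesion receptor of the adherens junction, and Epcam a surface adhesion protein of epithelia that is also abundant on pluripotent cells. Ocln (occludin) and the claudins span the membrane at tight junctions, where claudins set which ions and solutes can pass between cells. Krt8 is a type II keratin that pairs with the type I keratins Krt18 and Krt19 to form the filaments of simple epithelia. Fibroblasts make few of these proteins, and the gain of E-cadherin and its partners during reprogramming is known as the mesenchymal-to-epithelial transition.

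The promoters of 8 of the 10 genes were held in the RefSeq table for the GRCm38.p6 build, as 10 windows of 300 bases that run from 250 bases before to 50 bases after a transcript start; Cdh1 and Krt19 were not among them. The hexamer CACCTG was searched first, because it is the E-box to which the Snail and ZEB repressors of E-cadherin bind, and matches were read on both strands. It lay in 9 of the 10 windows, against 20.2% of 32851 promoter windows in the genome. The 2 Ocln windows overlap and share a match, and the window without one is the first of the 2 Cldn7 starts. Further motifs were read in the same way. The GC box GGGCGG was in 7 of 10 windows against 35.7% of all, the grainyhead motif AACCGG in 2 (Ocln and Cldn7) against 6.83%, the KLF motif GGGTGTG in 1 (Ocln) against 7.95%, the AP-1 motif TGANTCA in 1 (Cldn4) against 7.81% and the TATA motif TATAAA in 1 (Krt8) against 13.6%. G and C made up between 52% and 68% of the bases in the 10 windows, where the median of all windows was 52.7%. The motif shares were not matched for this base content. The windows below belong to Epcam, which had the highest level of the 10 genes on day 7, to Cldn4 and Cldn7, which had the lowest TPM ratios of p38i to DMSO on day 7 among the genes detected in both, and to the neighbouring pair Krt8 and Krt18. They read 5′ to 3′ along the gene, and capitals mark CACCTG, its reverse complement CAGGTG, and the AP-1 motif.
Epcam, chr17:87635729-87636028, plus strand: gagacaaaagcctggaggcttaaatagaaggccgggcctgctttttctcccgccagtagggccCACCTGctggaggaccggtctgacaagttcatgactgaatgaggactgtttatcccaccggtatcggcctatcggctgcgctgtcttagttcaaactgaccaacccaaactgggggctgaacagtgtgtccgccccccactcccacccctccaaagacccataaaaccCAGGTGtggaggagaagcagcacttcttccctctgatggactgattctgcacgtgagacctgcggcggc
Cldn4, chr5:134946885-134947184, minus strand: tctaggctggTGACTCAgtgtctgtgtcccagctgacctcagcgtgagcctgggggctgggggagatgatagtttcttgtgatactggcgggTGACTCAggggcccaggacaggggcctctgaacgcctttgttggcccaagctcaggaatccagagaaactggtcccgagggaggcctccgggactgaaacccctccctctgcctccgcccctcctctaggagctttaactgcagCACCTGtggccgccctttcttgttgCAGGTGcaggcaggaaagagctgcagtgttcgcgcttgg
Cldn7, chr11:69965171-69965470, plus strand: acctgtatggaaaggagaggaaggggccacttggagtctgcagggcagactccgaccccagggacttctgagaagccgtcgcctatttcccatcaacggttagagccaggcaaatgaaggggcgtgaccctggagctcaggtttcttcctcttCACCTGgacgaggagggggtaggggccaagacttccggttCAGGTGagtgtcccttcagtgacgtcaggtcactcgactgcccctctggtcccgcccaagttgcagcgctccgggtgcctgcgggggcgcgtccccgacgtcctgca
Krt8, chr15:102004293-102004592, minus strand: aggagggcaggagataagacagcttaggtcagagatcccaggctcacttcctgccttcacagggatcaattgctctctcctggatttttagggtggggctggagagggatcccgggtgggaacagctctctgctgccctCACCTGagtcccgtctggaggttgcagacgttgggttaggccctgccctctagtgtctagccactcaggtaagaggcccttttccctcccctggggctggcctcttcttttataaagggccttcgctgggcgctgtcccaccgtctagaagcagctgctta
Krt18, chr15:102027966-102028265, plus strand: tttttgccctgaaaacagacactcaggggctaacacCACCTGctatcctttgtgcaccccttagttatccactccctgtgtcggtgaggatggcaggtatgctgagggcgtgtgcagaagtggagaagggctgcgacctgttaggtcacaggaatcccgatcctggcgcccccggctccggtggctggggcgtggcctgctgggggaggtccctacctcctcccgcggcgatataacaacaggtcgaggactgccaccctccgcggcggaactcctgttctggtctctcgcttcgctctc
Epcam had E-boxes starting 187 and 19 bases before the transcript start, Cldn4 a match 14 bases before it and another from base 12 after it, and Cldn7 a pair that started 97 and 57 bases before it. Krt8 and Krt18 had a single one each, which started 111 and 214 bases before the start. Cldn4 was the only one with an AP-1 motif, present 240 and 158 bases before the start. A match describes the letters and is no evidence that a factor was bound.

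The values of the table are whole numbers that were read as TPM (transcript abundance scaled to the same total in every library), rounded down. TPM is scaled to gene length, so levels can be compared between genes, but it keeps no record of the read number and the depth of a library is unknown. A value of 0 therefore means a level below 1, and the step between 0 and 1 has no defined size. Libraries added up to between 991287 and 992537 and held between 12454 and 14170 genes at 1 or more, and mitochondrial genes took between 1.95% and 6.18% of the total. The p38i libraries of days 3 and 5 had the highest mitochondrial shares, between 6.09% and 6.18%, and those of p38i day 7 had 5.75% and 4.88%. Within a group, 79.4% to 83.9% of the detected genes had unequal values in the 2 libraries, so no library was a copy of another. Differences are given as differences of log2(TPM + 1) with their standard error from limma, fitted over all 28 libraries and the 13230 genes whose mean was 1 or more, and a gene was called at a Benjamini-Hochberg adjusted p under 0.05. All 10 genes passed this filter. Where groups are said not to overlap, the share of all tested genes without overlap was not computed. Since the samples are bulk RNA, fewer epithelial cells and less RNA of a gene per cell cannot be told apart.

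Before induction, 7 of the 10 genes were listed at 0 in both untreated MEF libraries. The exceptions were Krt19 at 34 and 25 TPM, Krt18 at 5 and 9, and Cldn4 at 3 and 1. Krt8, the type II partner of both keratins, was at 0. Fibroblast markers were present as labelled. The 9 markers read (Col1a1, Col1a2, Col3a1, Thy1, Pdgfra, Pdgfrb, Dcn, Lum, Vim) summed to 13379 and 12579 TPM there, with Lum at 0. In MEFs given p38i, Krt18 was listed at 0 and 1 and Cldn4 at 0 in both libraries, and neither gene overlapped with the untreated MEFs. Both were called lower, at −2.45 ± 0.29 (SE, adjusted p = 6e-06) for Krt18 and −1.5 ± 0.36 (adjusted p = 0.0058) for Cldn4, where 8.15% of all tested genes were called lower. The Cldn4 call rests on values at or below 3. Krt19 stood at 37 and 42 in the treated MEFs, a difference of 0.42 ± 0.18 that was not called (adjusted p = 0.13). With the MEF libraries fitted alone in limma neither Krt18 nor Cldn4 was called, although 2 of the 10 genes had an unadjusted p under 0.05.

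In DMSO the genes reached detectable levels on different days, Cdh1 by day 1 and Cldn7 by day 5. Cdh1 was listed at 0 in MEFs and at 10 and 11 TPM on day 1, and then rose to 33 and 30 on day 3, to 67 and 67 on day 5 and to 159 and 151 on day 7. It was higher at every step and no neighbouring days overlapped, with gains of 1.5 ± 0.10 from day 1 to 3, 1.07 ± 0.10 from day 3 to 5 and 1.2 ± 0.10 from day 5 to 7 (largest adjusted p = 2.2e-07). Epcam went from 1 and 1 on day 1 to 8 and 10 on day 3, then to 39 and 34 on day 5 and to 182 and 183 on day 7. It started below Cdh1 and had passed it by day 7, with gains of 2.31 ± 0.20, 1.91 ± 0.20 and 2.29 ± 0.20 over the same 3 steps (largest adjusted p = 1.5e-06).

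Among the tight junction genes, Ocln rose early and slowly, from 1 and 1 on day 1 to 4 and 3, 6 and 6, and 13 and 10 on the later days. Cldn3 stayed at or below 2 until day 5 and reached 20 and 14 on day 7, a gain of 2.56 ± 0.42 over day 5 (adjusted p = 0.00016). Cldn7 was at 0 through day 3, at 1 and 1 on day 5 and at 18 and 16 on day 7, a gain of 3.17 ± 0.26 (adjusted p = 5.9e-08). Most of the rise of these claudins thus fell on the last interval sampled. Cldn4 took another course, with 4 and 4 on day 1, a low of 1 and 1 on day 3, then 5 and 3 by day 5 and 38 and 27 by day 7. Its fall by 1.32 ± 0.36 from day 1 to 3 (adjusted p = 0.0053) came before a gain of 2.75 ± 0.36 from day 5 to 7 (adjusted p = 1.3e-05). Under a pseudocount of 0.1, neither this fall of Cldn4 (adjusted p = 0.11) nor the gain of Cldn3 (adjusted p = 0.089) was called in limma. Cldn6, a claudin of early embryonic epithelia, never passed 5 TPM in any library.

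The 3 keratins did not move together. Krt8 was at 2 and 2, 10 and 10, 19 and 17, and 72 and 71 TPM on days 1, 3, 5 and 7, and was called higher at each step (largest adjusted p = 0.017). Krt18 was at 5 and 7, 14 and 13, 12 and 11, and 20 and 15, and its only called change was the gain of 1.06 ± 0.29 from day 1 to 3 (adjusted p = 0.0059). Krt19 fell first, from 34 and 25 in MEFs to 13 and 16 on day 1 (−0.97 ± 0.18, adjusted p = 0.00016) and to 7 and 12 on day 3 (−0.60 ± 0.18, adjusted p = 0.013). It stood at 12 and 12 on day 5 and rose to 20 and 22 on day 7 (0.76 ± 0.18, adjusted p = 0.0048), a level at which it had not regained that of MEFs. The Krt8 call from day 3 to 5 was lost without any 1 of the 4 libraries, that of Krt18 without DMSO day 1 library 1, and that of Krt19 from day 1 to 3 without DMSO day 1 library 2 or day 3 library 1. Counted over the 10 genes, 4 were called higher on day 1 against MEFs (36.6% of all tested genes) and Krt19 lower (18.9% of all). From day 1 to 3 there were 5 higher (20.5% of all) and 2 lower, Cldn4 and Krt19 (24% of all). From day 3 to 5 there were 5 higher (13.8% of all), and from day 5 to 7 there were 8 (10.3% of all), with Cldn6 and Krt18 the ones not called.

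**Figure D1:**
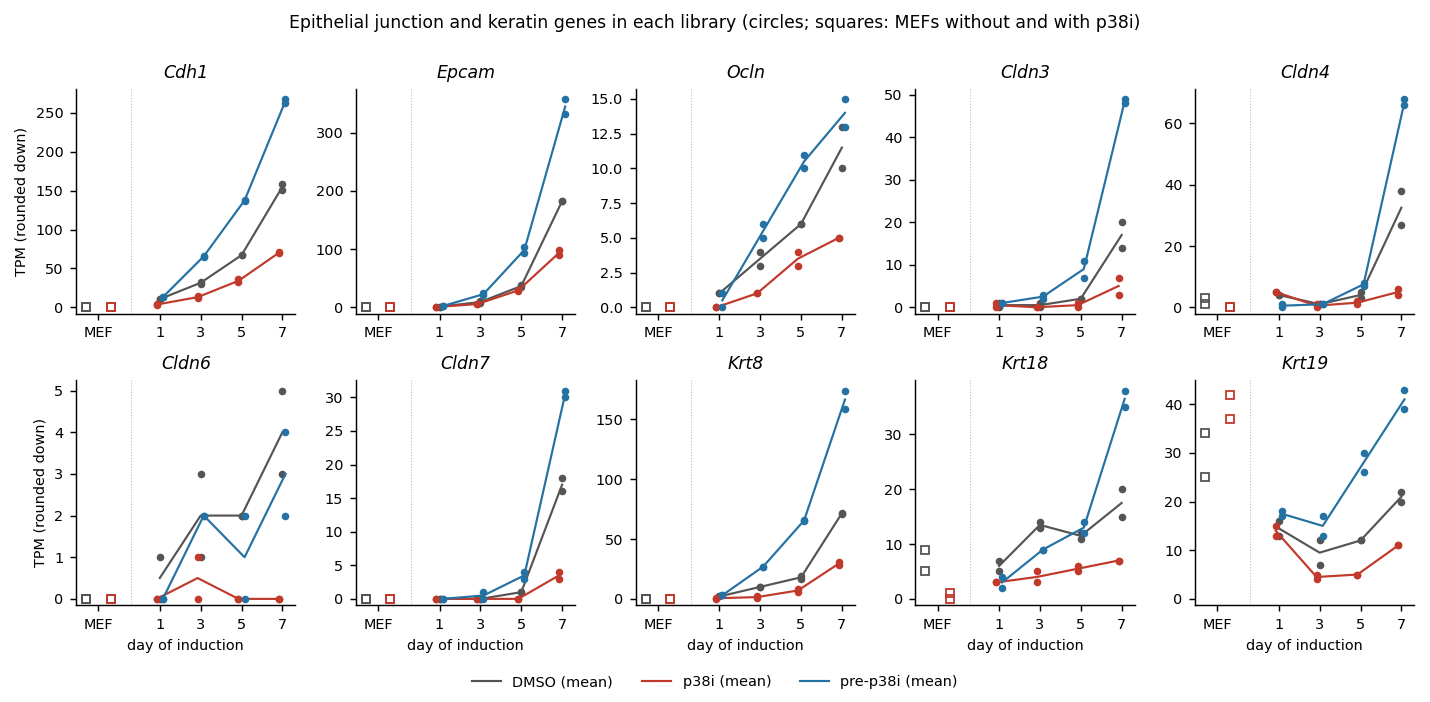
TPM of the 10 genes in each of the 28 libraries, with squares for MEFs without and with p38i, circles for the 2 libraries of each day and condition, and lines through the group means. The pre-p38i line ends above DMSO for all genes but Cldn6, the p38i line ends below it for all 10, and Krt19 alone is high in MEFs.

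p38i during induction left the 10 genes lower than in DMSO at the end of the course, and the loss was already there for some on day 1. On day 1, Cdh1 was at 3 and 4 TPM against 10 and 11 in DMSO (−1.36 ± 0.10, adjusted p = 7.2e-09). Krt8 at 0 and 1 against 2 and 2, and Ocln at 0 and 0 against 1 and 1, were also called, so that 3 of 10 genes were lower where 12.6% of all tested genes were. These last calls rest on values of 2 or less, and when these 4 libraries were fitted alone none of the 3 was kept (Cdh1 had an adjusted p of 0.055 in limma, and Cldn4 was called higher in p38i). Cldn4 was at 5 and 5 against 4 and 4, which with all libraries was not called (0.26, 95% interval −0.49 to 1.01).

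On day 3, 6 of the 10 genes were lower in p38i (16.2% of all tested genes). Krt8 had the largest difference, with 1 and 2 TPM against 10 and 10 in DMSO (−2.17 ± 0.22, adjusted p = 6.6e-07). Krt18 was at 5 and 3 against 14 and 13 (−1.56 ± 0.29, adjusted p = 0.00063), and Krt19 at 4 and 5 against 7 and 12 (−0.90 ± 0.18, adjusted p = 0.0015). All 3 keratins were thus called lower. Epcam, at 6 and 5 against 8 and 10, was the least secure of the 6 calls (−0.62 ± 0.20, adjusted p = 0.031). With a pseudocount of 0.1 in place of 1, 3 were called (Cdh1, Krt8, Krt19), and with these 4 libraries fitted alone Cdh1 was the only one.

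On day 5, 7 of the 10 genes were lower (18.7% of all). Krt19 stood at 5 and 5 TPM against 12 and 12 (−1.12 ± 0.18, adjusted p = 0.00016), and Cdh1 at 36 and 32 against 67 and 67 (−0.96 ± 0.10, adjusted p = 4e-07). Epcam was nearest to DMSO on this day, at 30 and 28 against 39 and 34, a difference of −0.32 that was not called (95% interval −0.74 to 0.10). With a pseudocount of 0.1 the calls of Cdh1, Cldn6, Cldn7 and Krt19 were kept, and with these 4 libraries fitted alone those of Cdh1, Cldn6 and Krt19. Cldn6 was listed at 0 and 0 against 2 and 2, and Cldn7 at 0 and 0 against 1 and 1. A smaller pseudocount widens such steps from 0, so the keeping of the Cldn6 and Cldn7 calls adds no support. The Cldn7 call was lost under quantile normalization.

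On day 7, all 10 were called lower (17.6% of all). None of them overlapped between p38i and DMSO, but no share of all genes without overlap stands beside this. The median of the 10 differences was −1.22, beside 0 over all tested genes. The claudins had the largest differences. Cldn4 was at 6 and 4 TPM against 38 and 27 (−2.48 ± 0.36, adjusted p = 2.4e-05) and Cldn7 at 4 and 3 against 18 and 16 (−2.01 ± 0.26, adjusted p = 7.5e-06). Cldn6 was listed at 0 in both p38i libraries against 5 and 3 in DMSO. Expressed as TPM ratios of the group means, p38i had 0.154 of the DMSO level of Cldn4 and 0.206 of that of Cldn7, but 0.512 of that of Epcam and 0.524 of that of Krt19, the genes least reduced. Ocln, at 5 and 5 against 13 and 10, and Krt18, at 7 and 7 against 20 and 15, lay between these, with ratios of 0.435 and 0.4. With a pseudocount of 0.1, 5 of the 10 calls were kept, those of Cdh1, Cldn4, Cldn6, Cldn7 and Krt19. For Cldn6, at 0 in both p38i libraries, this setting widens the difference, so the kept call adds no support.

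In pre-p38i cells most of the genes ran ahead of DMSO from day 3, but Cldn4 was called lower on day 1. On day 1, Cldn4 was at 0 and 1 TPM against 4 and 4 in DMSO (−1.82 ± 0.36, adjusted p = 0.0022), the only one of the 10 called on that day (6.24% of all tested genes were called lower). This call was lost when the 4 libraries were fitted alone. Krt18 was at 4 and 2 against 5 and 7 (−0.84, 95% interval −1.45 to −0.22, adjusted p = 0.072) and Cdh1 at 13 and 13 against 10 and 11 (0.29, 95% interval 0.09 to 0.48, adjusted p = 0.06), neither of them called. Cldn4 and Krt18 were the 2 genes called lower in the p38i-treated MEFs.

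On day 3, 5 of the 10 genes were higher in pre-p38i (13.8% of all tested genes). Cdh1 was at 66 and 65 TPM against 33 and 30 (1.03 ± 0.10, adjusted p = 3.4e-07), Epcam at 21 and 24 against 8 and 10 (1.24 ± 0.20, adjusted p = 0.00019) and Krt8 at 27 and 27 against 10 and 10 (1.35 ± 0.22, adjusted p = 0.00023). These 3 had separate ranges in the 2 conditions. Krt18 was at 9 and 9 against 14 and 13, a difference that was not called (−0.54, 95% interval −1.15 to 0.08). Krt8 and Krt18, partners in 1 filament, so differed from DMSO in opposite directions on this day, with the difference of Krt8 called and that of Krt18 not. The pseudocount of 0.1 left the calls of Cdh1 and Krt19, and fitting these libraries alone left those of Cdh1 and Krt8.

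On day 5, 7 genes were higher (14.3% of all). On the log2(TPM + 1) scale, Krt8 had the largest increase over DMSO of any of the 10 genes and 4 days, with 65 and 66 TPM against 19 and 17 (1.81 ± 0.22, adjusted p = 5.2e-06). This order depends on the fit. Over the alternatives tried, the day 5 difference reached at most 1.89 for Krt8 and 2.08 for Cldn3. Cldn3 was at 11 and 7 against 2 and 2 (1.71 ± 0.42, adjusted p = 0.0052) and Krt19 at 30 and 26 against 12 and 12 (1.15 ± 0.18, adjusted p = 0.00011). Krt18, at 14 and 12 against 12 and 11, overlapped with DMSO. With a pseudocount of 0.1, 3 were called (Cdh1, Krt8, Krt19).

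On day 7, 8 genes were higher (15.4% of all). Epcam was at 332 and 358 TPM against 182 and 183 (0.91 ± 0.20, adjusted p = 0.0016), Cldn4 at 66 and 68 against 38 and 27 (1.04 ± 0.36, adjusted p = 0.034), and Krt18 at 35 and 38 against 20 and 15 (1.03 ± 0.29, adjusted p = 0.012). Ocln, at 13 and 15 against 13 and 10, and Cldn6, at 2 and 4 against 5 and 3, overlapped with DMSO and were not called. The interval of the difference was −0.24 to 0.78 for Ocln and −1.31 to 0.63 for Cldn6. The median of the 10 differences was 0.92, beside 0.05 over all tested genes. With a pseudocount of 0.1 the calls of Cdh1 and Krt19 were kept, and 4, 5 and 4 genes were called without DMSO library 2, pre-p38i library 1 and pre-p38i library 2.

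**Figure D2:**
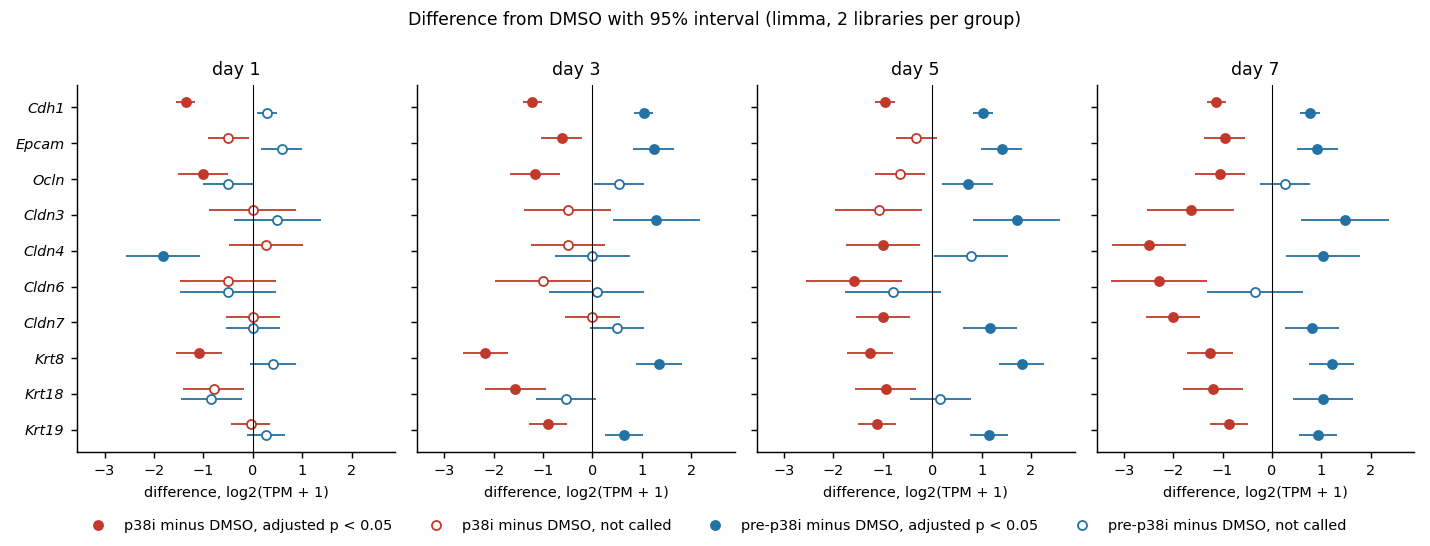
Difference of log2(TPM + 1) from DMSO on the same day, with its 95% interval, for p38i (red) and pre-p38i (blue), where filled points had an adjusted p under 0.05. Both conditions are set against the same 2 DMSO libraries of a day. On day 7 all 10 red points are filled and below 0 and 8 blue points are filled and above 0, and on day 1 the filled blue point is that of Cldn4.

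The p38i and pre-p38i conditions were also set against each other, in a comparison that leaves the DMSO libraries out of the difference. On day 1, Cdh1, Epcam and Krt8 were lower in p38i (3 of 10, where 19.9% of all tested genes were lower), and Cldn4 was higher (8.25% of all), with 5 and 5 TPM against 0 and 1. From day 3 the calls were all towards lower levels in p38i, for 7 of 10 genes on day 3 (31.4% of all), 9 of 10 on day 5 (31.1% of all) and 10 of 10 on day 7 (29.5% of all). The same drug given before or during induction was thus followed by opposite orders of Cldn4 on day 1 and day 7, although the day 1 calls of Cldn4 (adjusted p = 0.086), Epcam and Krt8 were lost when those libraries were fitted alone in limma. On day 7 the difference was −3.52 ± 0.36 for Cldn4 (adjusted p = 9e-08), −3.13 ± 0.42 for Cldn3 (adjusted p = 3.6e-06) and −2.46 ± 0.22 for Krt8 (adjusted p = 1.6e-08). For Krt8 it had been larger on day 3, when p38i had 1 and 2 TPM and pre-p38i 27 and 27 (−3.52 ± 0.22, adjusted p = 3.1e-10).

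Because the conditions differed in how far the rise had gone, groups of unequal day were compared as well. p38i on day 7 was close to DMSO on day 5 for Cdh1, at 71 and 70 TPM against 67 and 67 (0.07, 95% interval −0.13 to 0.27). It was not close for Epcam, at 98 and 89 against 39 and 34 (1.33 ± 0.20, adjusted p = 6e-05). Epcam, Cldn7 and Krt8 were called higher (8.4% of all tested genes) and Cldn6 lower (15.2% of all). A pseudocount of 0.1 kept only the call of Cldn6, at 0 and 0 against 2 and 2, a step from 0 that this setting widens. With these libraries fitted alone the calls of Epcam and Cldn6 were kept, and Krt18, at 7 and 7 against 12 and 11, was called as well. Pre-p38i on day 5 against DMSO on day 7 gave the reverse for Epcam, at 104 and 93 against 182 and 183 (−0.89 ± 0.20, adjusted p = 0.0051). Cdh1, at 138 and 137 against 159 and 151, differed by −0.17 (95% interval −0.37 to 0.03), and Krt8, at 65 and 66 against 72 and 71, by −0.12 (95% interval −0.59 to 0.34). Epcam, Cldn4, Cldn6 and Cldn7 were the 4 genes called lower there (4.36% of all). Cldn4 had 8 and 7 against 38 and 27, and Cldn7 4 and 3 against 18 and 16, and in both genes the 2 groups were well apart. With a pseudocount of 0.1 none of these 4 calls was kept, and 3 of the 10 genes had an unadjusted p under 0.05 in that limma fit.

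Whether the distance from DMSO changed over the course was tested as a difference of differences between day 1 and day 7. For p38i, 3 genes moved lower relative to DMSO, Cldn4, Cldn7 and Krt19 (7.55% of all tested genes did). For pre-p38i, 3 genes gained, Cdh1, Cldn4 and Krt18 (7.25% of all did). With a pseudocount of 0.1, Cldn4 and Cldn7 for p38i and Krt18 for pre-p38i were no longer called. For Krt8 under p38i the change was −0.17 (95% interval −0.82 to 0.49) and for Cdh1 0.24 (95% interval −0.05 to 0.52), so neither a widening nor a narrowing of the gap was detected for these genes.

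The make-up of the 10 genes changed with time in every condition. Their summed level was 42 and 35 TPM in MEFs, of which keratins held 94.8%, and 38 and 42 on DMSO day 1, when the total was the same but keratins held 56.3% and Cdh1 with Epcam 28.8%. By DMSO day 7 the sum was 547 and 512, with 63.7% in Cdh1 and Epcam and 20.8% in keratins. In p38i it stayed at 25 and 29 on day 1 and 33 and 28 on day 3, and reached 240 and 220 on day 7. In pre-p38i it was already 148 and 153 on day 3 and ended at 998 and 1037. On day 7 keratins held 20.7% in p38i and 24% in pre-p38i. Cdh1 with Epcam held 71.3% in p38i and 60% in pre-p38i, and Ocln with the claudins 8.04% in p38i, 15.5% in DMSO and 16% in pre-p38i.

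**Figure D3:**
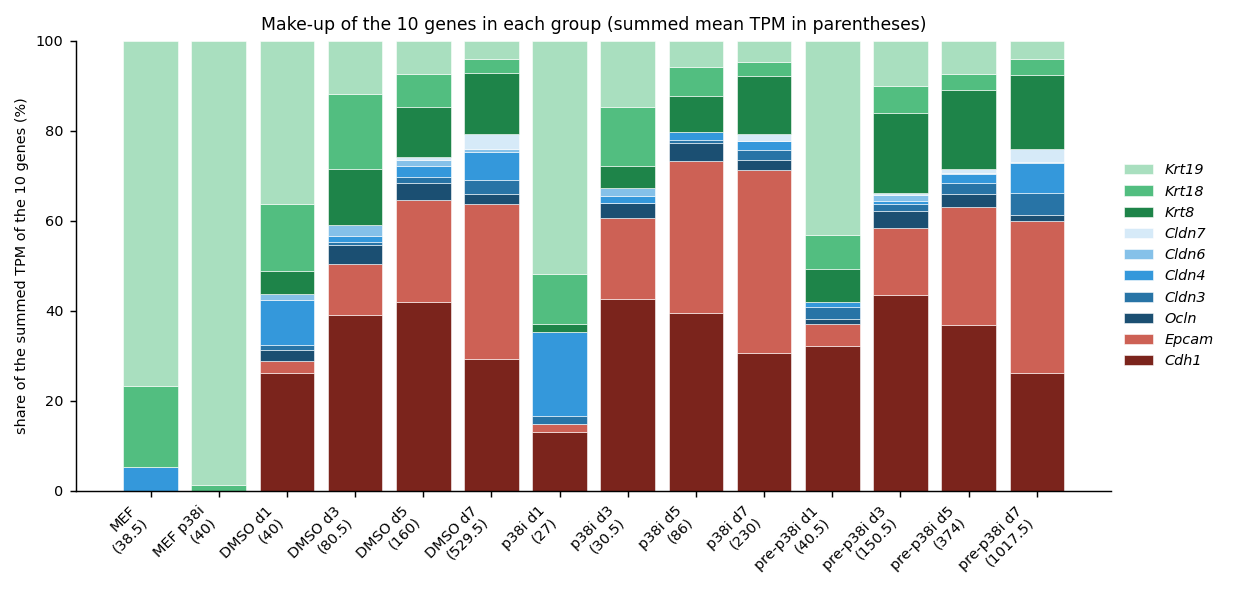
Share of each of the 10 genes in their summed mean TPM for the 14 groups, in percent, with the sum in parentheses under each bar. Krt19 fills most of the bar in MEFs and p38i-treated MEFs, whereas Cdh1 and Epcam together fill 60% or more of it on days 5 and 7 of each condition.

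The levels of functionally linked genes changed relative to each other. The ratio of Krt8 to Krt18, both per length, rose in DMSO from 0.333 on day 1 to 0.741, 1.57 and 4.09 on days 3, 5 and 7, and in p38i from 0.167 to 0.375, 1.27 and 4.21. In pre-p38i it was 1, 3, 5.04 and 4.56 over the same days. All 3 conditions thus passed from less Krt8 than Krt18, or equal levels, to a clear excess of Krt8. The ratio of Epcam to Cdh1 rose from 0.0952 to 1.18 between day 1 and day 7 of DMSO, to 1.33 in p38i and to 1.3 in pre-p38i. The size of the day 1 ratios is uncertain, since they rest on low values rounded down. Krt8 was then at 0 and 1 TPM in p38i and 2 and 2 in DMSO, and Epcam at 1 and 1 in DMSO. Krt8 (chr15:101996711-102004342, minus strand) and Krt18 (chr15:102028216-102032026, plus strand) are neighbours in GRCm38 that are transcribed away from each other, with no protein-coding gene in the 23697 bp between their GENCODE M21 bounds. Cldn4 (chr5:134945119-134946934, minus strand) and Cldn3 (chr5:134986214-134987472, plus strand) are arranged in the same manner, 39279 bp apart, and both are genes of a single exon.

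The order of the groups was led by pre-p38i day 7 and then DMSO day 7 for Cdh1, Epcam, Cldn3, Cldn4, Cldn7, Krt8 and Krt18, and these neighbours in the order did not overlap. For Ocln, pre-p38i day 7 overlapped with DMSO day 7 and that with pre-p38i day 5, which lay apart from the next group, DMSO day 5. For Cldn6, at 5 TPM or less throughout, no group was apart from its neighbour in the order. Krt19 was the exception, since p38i-treated MEFs at 37 and 42 overlapped with pre-p38i day 7 at 43 and 39 at the head of the list, and p38i day 3 and day 5 stood at its end. The likeness of each gene's profile over the 14 group means to the mean profile of the other 9 was correspondingly lowest for Krt19 (r = 0.21) and Cldn6 (r = 0.74) and highest for Cldn3 (r = 0.96). These correlations describe group means on the log2(TPM + 1) scale that share libraries and a common time trend.

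Outside the 10 genes, the profiles most like their mean over the 14 group means, among 10661 genes whose mean was 5 TPM or more, were those of Mrps31 (r = 0.97), Gm42860 (0.97), Gm43305 (0.97), Gm38194 (0.97) and Lsr (0.97). Lsr encodes an angulin, a receptor of tricellular tight junctions, and was at 0 in MEFs, 32 and 34 TPM on DMSO day 7, 15 and 13 in p38i and 49 and 57 in pre-p38i. Gm42860, an annotated locus without an assigned product, had the widest range of the 5, from 27 in p38i-treated MEFs to 708 in pre-p38i on day 7. Mrps31, a mitochondrial ribosomal protein, followed the same shape within a narrow range, between 20 and 42.

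Other keratins and claudins had other courses. Of 54 keratin genes in the table, 19 reached 1 TPM and 13 reached 5 in any library, and 5 of them, Krt80, Krt19, Krt18, Krt20 and Krt7, were at 5 or more in both untreated MEF libraries. Krt8 had the highest value of the family, 174 TPM, and Krt90 and Krt13 came next. These 2 were at 1 or less in MEFs and at 48 and 45 (Krt90) and 35 and 29 (Krt13) on DMSO day 1, when Krt8 was at 2 and 2. Krt90 then declined to 16 and 14 on day 7. Krt6a, a keratin of stratified epithelia, was at 11 and 11 on day 1 and 6 and 5 on day 7. Of 25 claudin genes, 13 reached 1 and 7 reached 5. Cldn12 had 37 and 31 in MEFs and 28 and 32 on DMSO day 7. Cldn11 was at 12 and 12 on DMSO day 7 and at 19 and 20 in p38i, a difference of 0.66 ± 0.19 (adjusted p = 0.013) opposite in sign to that of the claudins listed above. Cldn1 also went this way, at 5 and 5 in p38i against 1 and 1 in DMSO on day 7. Of 3 listed claudins outside the 10 genes that were tested, 2 were called higher in p38i on that day and 0 lower. Over all tested genes 16.5% were higher and 17.6% lower. Krt8-ps, a pseudogene 98.6% identical to Krt8 over 941 nt, was listed at 0 in every library, and was the only near-identical copy found for any of the 10 genes. Cldn3 overlaps an antisense gene, Wbscr25, which was also at 0 throughout.

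**Figure D4:**
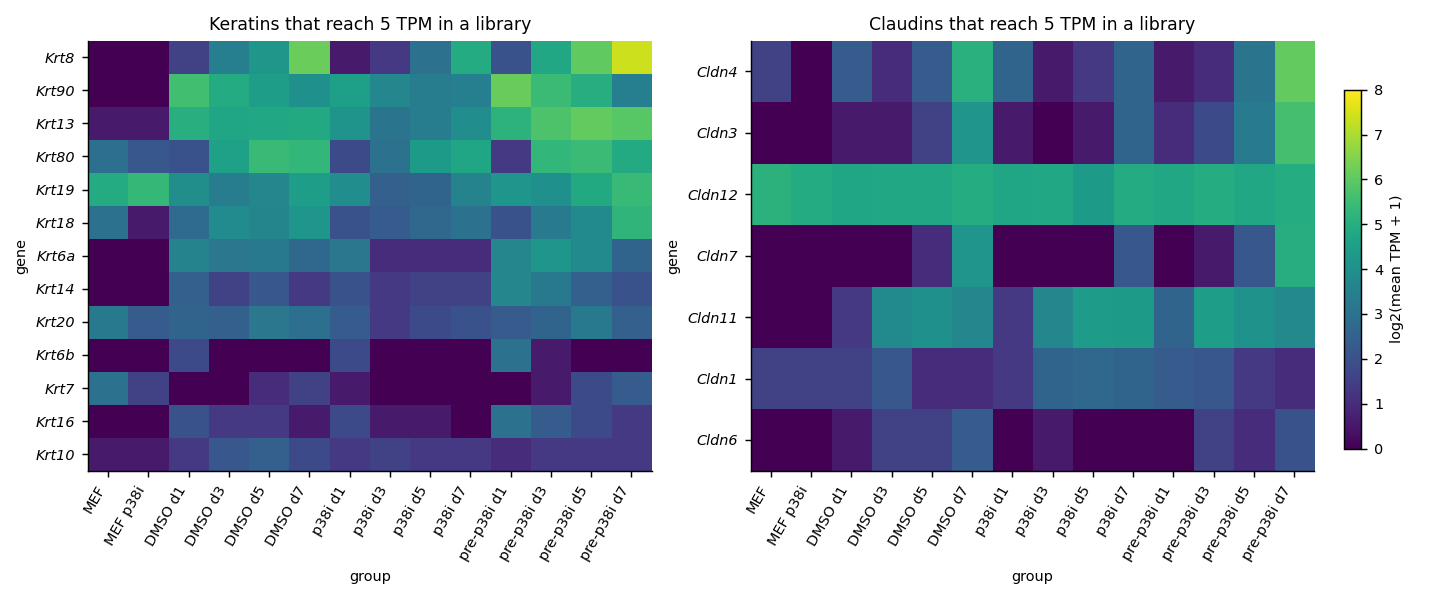
Heat map of log2(mean TPM + 1) in the 14 groups for the 13 keratins (left) and 7 claudins (right) that reached 5 TPM in any library, ordered by their highest value. Krt90 and Krt13 are at a high level from day 1, whereas Krt8 and the claudins Cldn4, Cldn3 and Cldn7 reach theirs on day 7, and Cldn12 is even across the groups.

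Genes that work with these proteins were read from lists of junction partners and regulators. Of the 16 tight junction partners that passed the filter, 8 were lower and 1 higher in p38i than in DMSO on day 7, and 1 was higher and 2 lower in pre-p38i. Over all tested genes, 17.6% were lower and 16.5% higher in p38i on this day, and 15.4% were higher and 14.5% lower in pre-p38i. The median differences of the 16 partners were −0.36 and 0.14, beside 0 and 0.05 over all tested genes. Crb3, a polarity protein, was at 4 and 6 TPM in p38i against 17 and 16, and Ildr1, of the same family as Lsr, at 15 and 16 against 47 and 43 (−1.48 ± 0.14, adjusted p = 1.5e-07). Cgnl1, a junctional scaffold already at 43 and 44 in MEFs, went the other way, with 33 and 38 in p38i, 20 and 20 in DMSO and 8 and 11 in pre-p38i. The adherens junction partners, most of which fibroblasts also make, were divided, with 3 of 11 higher and 3 lower in p38i and 1 higher and 3 lower in pre-p38i. Nectin2, a cell adhesion receptor, was at 38 and 43 in p38i against 69 and 70 (−0.77 ± 0.08, adjusted p = 6.9e-07), and Nectin3 at 46 and 47 against 33 and 37 (0.40 ± 0.07, adjusted p = 0.00018). Of 8 desmosome genes, 4 were lower in p38i, and 2 were higher and 1 lower in pre-p38i. Pkp1, a desmosomal plaque protein, was at 47 and 44 in p38i, 63 and 60 in DMSO and 110 and 110 in pre-p38i. Perp, of the same list, was called lower than DMSO in both conditions. It was at 231 and 252 in p38i, 281 and 278 in DMSO and 142 and 136 in pre-p38i.

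Of 8 epithelial transcription factors and splicing regulators that passed the filter, 7 were lower in p38i on day 7 (17.6% of all tested genes). In pre-p38i 2 were higher (15.4% of all). Elf3, an ETS factor of epithelia, was at 0 in MEFs, at 39 and 34 TPM in DMSO, 11 and 11 in p38i (−1.64 ± 0.22, adjusted p = 9.4e-06) and 93 and 87 in pre-p38i (1.28 ± 0.22, adjusted p = 0.00017). Of 8 epithelial surface and trafficking genes, 6 were lower in p38i (17.6% of all). Among them were the membrane protease St14 at 22 and 20 against 57 and 53 (−1.35 ± 0.14, adjusted p = 5.3e-07) and its inhibitor Spint1 at 15 and 14 against 39 and 32 (−1.23 ± 0.36, adjusted p = 0.013). In pre-p38i 1 of these 8 was called, Cd24a, which was lower (14.5% of all). Of the 6 repressors of Cdh1 tested, 4 were higher (16.5% of all) and 1 lower (17.6% of all) in p38i, and 3 were lower in pre-p38i (14.5% of all). Twist1 was at 155 and 161 in p38i, 94 and 102 in DMSO and 65 and 58 in pre-p38i (0.68 ± 0.06 and −0.66 ± 0.06 against DMSO, adjusted p = 1e-07 and 1.2e-07). Zeb2 was at 22 and 18 in p38i against 11 and 13 (0.69 ± 0.14, adjusted p = 0.00081), and Snai1, which had stood at 88 and 83 in MEFs, was lower at 2 and 2 against 5 and 4. On DMSO day 1 against MEFs, 5 of the 6 repressors were already called lower (18.9% of all tested genes). Twist1 was called higher (36.6% of all), at 189 and 179 against 74 and 74.

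Markers of other cells that a fibroblast culture could hold moved with some of these results. The 9 fibroblast markers summed to 3362 and 3543 TPM on DMSO day 7. They summed to 4437 and 4421 in p38i, where 3 were called higher (16.5% of all tested genes). In pre-p38i they summed to 2510 and 2366, and all 9 were called lower (14.5% of all). None of them was at 0 in these groups. The 8 macrophage markers summed to 187 and 197 in DMSO, 210 and 183 in p38i and 43 and 33 in pre-p38i on day 7. Of the 7 tested, 4 were lower (17.6% of all) and 1 higher (16.5% of all) in p38i. In pre-p38i 7 were lower (14.5% of all), and Csf1r and Ptprc were at 0 in both libraries. The 12 markers of stratified epidermis summed to between 53 and 59 in DMSO and pre-p38i and to 28 and 27 in p38i on day 7, and Krt1, Krt15 and Krt17 were at 0 in all 3 groups. Most of these sums came from Sfn, at 37 and 35 in DMSO, 18 and 18 in p38i and 38 and 42 in pre-p38i. Sfn was already at 16 and 17 in untreated MEFs. The 7 trophoblast markers summed to at most 3, and the 7 endoderm markers to at most 8, in every library. In DMSO, p38i and pre-p38i on day 7, Cdx2, Eomes and Hand1 of the former and Afp, Sox17 and Gata4 of the latter were at 0. The 5 endothelial markers summed to between 61 and 69 on day 7 in all conditions, but only 2 of the 5 passed the filter. Emcn was at 0 in all 3 groups, Cdh5 in p38i and pre-p38i, and Pecam1 in p38i. The part of the changes of the fibroblast, macrophage and epidermis marker lists in the differences of the 10 genes was not tested.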

How the data were processed

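RNA-seq of 28 libraries in 14 groups of 2 was analysed, grouped by the sample labels. The labels name Bowtie2 2.2.5, RSEM 1.3.0 and bcl2fastq and the builds mm10 and hg38, without roles. They differ from the methods of the study on the library kit and on RNA extraction. The deposited score is a whole number per gene and library. It was read here as the authors' TPM rounded down, because the values of each library add up to just under the total to which TPM is scaled. Depth is unknown, so no counting interval was computed. Positions follow the deposited table (GRCm38); 92.5% of its genes have the same bounds in GENCODE M21.

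Values were compared on log2(TPM + 1) by linear models in limma 3.58.1 (R 4.3.3), using eBayes with a mean-variance trend and 1 model of 14 groups without a block. The 13230 genes whose mean was 1 or more were tested, and a call needed a Benjamini-Hochberg adjusted p under 0.05. The scripts were tested on simulated data. The genes described, and the lists of partners, regulators and cell type markers, were chosen with earlier results of these data known. From each list at most 4 genes were named, those called with the largest difference of p38i from DMSO on day 7 among genes whose mean was 5 or more and whose groups did not overlap. Other keratins and claudins were named after their values were seen. Near-identical copies were sought with BLAST 2.17.0+ (at least 95% identity over 200 nt).

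The alternatives tried were leaving out each library, fitting the compared groups alone, a replicate block, quantile normalization, a pseudocount of 0.1, a minimum log2 difference of 1, a minimum mean of 5 and no filter.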

Additional observations from a re-analysis of the deposited data

Results flagged for a closer look

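For 5 of the 10 genes the distance from DMSO was not the same on day 1 as on day 7, by a test of the difference of differences on log2(TPM + 1) in limma (adjusted over the 13230 genes). In p38i, Cldn4 changed by −2.74 ± 0.51 (SE, adjusted p = 0.00066), Cldn7 by −2.01 ± 0.37 (adjusted p = 0.00065) and Krt19 by −0.83 ± 0.26 (adjusted p = 0.029). In pre-p38i, Cldn4 changed by 2.86 ± 0.51 (adjusted p = 0.00053), Krt18 by 1.87 ± 0.41 (adjusted p = 0.0038) and Cdh1 by 0.49 ± 0.13 (adjusted p = 0.017). Cldn4 thus went from near DMSO to below it in p38i and from below to above it in pre-p38i, starting from a day 1 level of 5 and 5 TPM in p38i and of 0 and 1 in pre-p38i, with 4 and 4 in DMSO. Cldn7 was listed at 0 on day 1 in every condition, so its value equals the day 7 difference and depends on the pseudocount. With a pseudocount of 0.1 in limma, the p38i calls of Cldn4 (adjusted p = 0.12) and Cldn7 (adjusted p = 0.17) were lost. The pre-p38i call of Krt18 was lost as well (adjusted p = 0.14). The Krt19 call was lost without DMSO day 1 library 1, DMSO day 7 library 2, p38i day 1 library 2 or either p38i day 7 library, and the Cdh1 call without DMSO day 1 library 2, DMSO day 7 library 2 or pre-p38i day 7 library 1. Groups of 2 libraries are too small for a search for outlying samples.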

How the results depend on the processing

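Of the 118 calls of the 10 genes over 21 comparisons, 51 were kept in every other fit that gave a value, 67 were lost in at least 1 and 0 changed direction. The minimum log2 difference of 1 was not applied in this count. Some of the 51 lie below that minimum, such as Krt19 in p38i against DMSO on day 7 (−0.87). A pseudocount of 0.1 lost 44 of 118, and with it a pair of libraries at 0 and 1 differs by 3.46 on the log2 scale. The fit of only the groups compared lost 35 of 113, leave-one-out 30 of 118, quantile normalization 7, the replicate block 5, no filter 4, and a minimum mean of 5 lost 0 of the 92 it could give. With the pseudocount of 0.1, the number of genes called went from 6 to 3, 7 to 4 and 10 to 5 for p38i against DMSO on days 3, 5 and 7, from 5 to 2, 7 to 3 and 8 to 2 for pre-p38i against DMSO on these days, from 5 to 3 for DMSO day 5 against day 3, from 4 to 1 for p38i day 7 against DMSO day 5, from 4 to 0 for pre-p38i day 5 against DMSO day 7 (3 at an unadjusted limma p under 0.05), and from 3 to 1 for the change in p38i minus DMSO. In the fit of only the groups compared it went from 3 to 1 (Cldn4, which was not among the 3), 6 to 1 and 7 to 3 for p38i against DMSO on days 1, 3 and 5, from 5 to 2 for pre-p38i against DMSO on day 3, from 4 to 1 for p38i against pre-p38i on day 1, from 2 to 0 for p38i-treated MEFs (2 at an unadjusted limma p under 0.05), from 5 to 2 for DMSO day 1 against MEFs, from 5 to 1 for DMSO day 5 against day 3, from 4 to 2 for pre-p38i day 5 against DMSO day 7 and from 3 to 5 for the change in pre-p38i minus DMSO. A minimum log2 difference of 1 left 3 of 7 for p38i against DMSO on day 5, 4 of 8 for pre-p38i on day 7, 2 of 5 for DMSO day 1 against MEFs and 3 of 5 for DMSO day 5 against day 3. A minimum mean of 5, which Ocln, Cldn6 and Cldn7 did not reach, left 2 of 4 in both comparisons of unequal day. The replicate block gave 2 in place of 1 for pre-p38i against DMSO on day 1, and moved no other count by more than 1.5 times. The 5 calls it lost were those of Ocln for pre-p38i against DMSO on day 5, Cldn4 for DMSO day 3 against day 1 and day 5 against day 3, Krt8 for p38i day 7 against DMSO day 5 and Cldn6 for pre-p38i day 5 against DMSO day 7. Same-numbered libraries did not deviate together (91 pairs of groups, r between −0.08 and 0.09), so the numbers do not pair the samples.

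Quantile normalization gave 2 in place of 1 on that day, 3 in place of 5 for DMSO day 1 against MEFs and 6 in place of 3 for the change in p38i minus DMSO. Over all genes it raised the share of calls that are higher in p38i than in DMSO from 21.6% to 41.1% on day 1, 24.4% to 50% on day 3 and 29.6% to 52.7% on day 5, and in p38i than in pre-p38i from 29.3% to 44.5%, 25.4% to 53.7% and 34.4% to 52.9% on these days. It lowered that share from 66.7% to 50.7% for pre-p38i against DMSO on day 3, 65.9% to 47.5% for DMSO day 1 against MEFs, 71.3% to 50.8% for DMSO day 5 against day 3 and 69.6% to 51.5% for pre-p38i day 5 against DMSO day 7, and raised it from 35.6% to 50.4% for p38i day 7 against DMSO day 5. The median of all genes moved from −0.08 to 0.04 and to 0.03 for p38i against DMSO on days 3 and 5, from −0.16 to 0.05 and from −0.12 to 0.02 for p38i against pre-p38i on these days, and from 0.14 to −0.07 for DMSO day 1 against MEFs.

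Leaving out a library gave between 4 and 5 calls for p38i against DMSO on day 5 (7 with all), 1 and 2 for pre-p38i on day 1 (1), 3 and 5 on day 3 (5), 4 and 7 on day 7 (8), 1 and 2 for p38i-treated MEFs (2), 3 and 4 for DMSO day 5 against day 3 (5), 2 and 2 for p38i day 7 against DMSO day 5 (4), and 2 and 4 for pre-p38i day 5 against DMSO day 7 (4). The libraries whose loss moved a count by more than 1.5 times were DMSO day 5 library 1 and pre-p38i day 1 library 1, pre-p38i day 3 library 2, DMSO day 7 library 2, both pre-p38i day 7 libraries, untreated MEF library 1, DMSO day 3 library 1, DMSO day 5 library 2, both p38i day 7 libraries and pre-p38i day 5 library 2. The cause of these changes was not tested.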
